A study of Homo sapiens with 12 samples.

Results

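The active Notch culture of NOTCH1KO cells was 1 RNA library, from cells on plates coated with the Notch ligand Jagged1 and given the solvent DMSO. It was set against the 3 other NOTCH1KO cultures, which were Jagged1 with DAPT, Fc with DMSO and Fc with DAPT, with 1 library each. DAPT blocks γ-secretase and was given for 12 h, and Fc is the control protein for the plate coating. These 4 libraries were chosen by their labels from 12 in the series, whose other 8 came from the NOTCH2KO and WT lines in the same 4 cultures. All were DAOY cells, an established human medulloblastoma line. CRISPR/Cas9 had been aimed at the receptor gene NOTCH1 in the NOTCH1KO line and at NOTCH2 in the NOTCH2KO line, while WT cells were unedited. Each genotype was 1 line. The sources used here did not say whether a line was a single clone, nor how long cells stayed on the plates. With 1 library per culture the comparison describes these libraries. A gene was counted as above the range when its log2(TPM + 1) on Jagged1 with DMSO exceeded the highest of the 3 other cultures by at least 0.5, and below the range when it lay at least 0.5 under the lowest. TPM is a measure of transcript abundance scaled for gene length and for the total of each library. The distance to the nearest of the 3 cultures is called the gap.

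Notch receptors are cut when they bind a ligand such as Jagged1 on a neighbouring surface. γ-secretase makes the last cut and frees the intracellular domain, which enters the nucleus, binds the DNA-binding protein CSL (RBPJ) with a Mastermind coactivator, and switches on genes such as the HES and HEY repressors. DAPT stops that last cut for all Notch receptors alike. Cells without NOTCH1 can still carry NOTCH2 and NOTCH3, which bind the same ligands. In medulloblastoma, a tumour of the cerebellum, Notch receptors have been linked to the upkeep of progenitor-like cells.

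The 4 NOTCH1KO libraries held between 18.7 and 20.9 M reads, so a single read per kb of transcript stood for 0.102 to 0.117 TPM, and 17621 genes that averaged 1 TPM or more over the 12 libraries were examined. NOTCH1 itself had 0.488 TPM on Jagged1 with DMSO, against 0.619 on Jagged1 with DAPT, 0.874 on Fc with DMSO and 0.278 on Fc with DAPT in NOTCH1KO, while the WT libraries ranged from 2.78 to 3.57 TPM. The gene tables do not separate edited from unedited transcripts. NOTCH2, the receptor gene left intact, had 87.2 TPM on Jagged1 with DMSO, against 111 on Jagged1 with DAPT, 107 on Fc with DMSO and 109 on Fc with DAPT, which put the active culture lowest. Protein-coding genes on chromosome 9 beyond 70 Mb, an interval that holds NOTCH1, NRARP and KLF9, had a median log2 level of NOTCH1KO minus WT of -0.76 over all cultures (373 genes), whereas the median elsewhere was -0.01. Their median difference between active and other NOTCH1KO cultures was -0.04, and 6 of them (1.61%) were above and 8 (2.14%) below the range. Of the neural list 13 of 20 genes passed the filter on low values, with 1 (NCAM1) below the range. The cerebellar granule lineage gene ATOH1 and the neuronal gene DCX were not among them. Members that passed included ENO2, TUBB3, NEFL and PAX6, with 37.5, 25.7, 19.7 and 15.6 TPM in the active culture. The list's summed level was 150 TPM in the active culture and 182 to 220 TPM in the others. Of the mesenchymal list 18 of 19 passed, and its summed level was 11046 TPM in the active culture and 9202 to 11481 TPM in the others. Of 14 blood and endothelial markers 3 passed, with 0 past the range, and the list's summed level was 36.3 TPM in the active culture and 37.4 to 64.3 TPM in the others. Most of it was TIE1 (19.5 against 12.8 to 38.6 TPM) and LCP1 (15.4 against 17.4 to 24.3 TPM), while the defining genes PTPRC and PECAM1 were at 0 in all 4 libraries. Of 12 epithelial markers 9 passed, and their list summed to 756 TPM in the active culture and 615 to 851 TPM in the others. The keratin gene KRT18 was the highest of them (572 against 463 to 629 TPM), KRT5 was above the range (3.80 against 0.173 to 2.26 TPM), and EPCAM and CDH1 were below 1 TPM in each of the 4. The part of these lists in the results was not tested.

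The proximal promoters of 3 Notch effectors that stood above the range are printed because the letters TGGGAA are the core of the site to which CSL binds. TGGGAA and its reverse complement TTCCCA are in capitals. The sequences are from RefSeq on GRCh38.p14, read 5′ to 3′ on the gene's strand, and end 10 bases past the gene's start.
HES1, chr3:194136028-194136157, plus strand: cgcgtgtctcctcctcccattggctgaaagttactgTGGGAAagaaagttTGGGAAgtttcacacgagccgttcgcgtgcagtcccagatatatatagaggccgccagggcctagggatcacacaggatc
HES4, chr1:1000088-1000217, minus strand: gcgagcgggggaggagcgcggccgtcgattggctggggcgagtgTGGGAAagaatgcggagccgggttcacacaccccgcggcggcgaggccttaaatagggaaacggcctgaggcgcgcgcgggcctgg
HEY2, chr6:125749402-125749641, plus strand: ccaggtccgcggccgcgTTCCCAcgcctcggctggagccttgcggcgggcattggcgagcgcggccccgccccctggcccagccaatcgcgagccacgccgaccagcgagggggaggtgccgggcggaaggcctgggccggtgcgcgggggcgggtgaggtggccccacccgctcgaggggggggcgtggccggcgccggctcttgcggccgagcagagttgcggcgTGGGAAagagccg
HES1 has a pair of matches, starting 84 and 70 bases before the start, and HES4 has 1, starting 76 bases before it. HEY2 has a match that begins 3 bases before its start and another 213 bases before it, on the opposite strand. The same letters, on either strand and in any place of a 300-base window, were present in 24.0% of 35116 RefSeq promoters. Among protein-coding genes with a promoter in the table, 71 of 235 above the range (30.2%) and 27.97% of 9690 tested genes held a match. The windows of JAG1, KLF9, NOTCH3, VCAM1 and NRARP held none. HEY1, DTX1, SNAI2 and BMP2 had no promoter in the set used and were not examined. A match describes letters in this window and shows no binding.

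Notch effectors were the list with the largest share of members above the range among lists with at least 10 tested genes. Of 21 genes on the list 17 passed the filter, and 8 of these were above the range in the active culture (HEY1, HEY2, HES1, HES4, DTX1, KLF9, SNAI2 and BMP2), with 0 below it. Over all genes tested, 2.46% were above and 3.0% below. By mean read depth per base (coverage) in place of TPM, the count was 8 as well. The list's median difference was 0.69 on the log2 scale, and that of all genes tested was -0.02. The list was drawn up with results of these data in view, so that its count is no independent evidence. No member passed the limma test across all genes described below as fitted there.

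HEY1 (ENSG00000164683, GRCh37 chromosome 8, 80676245 to 80680098) encodes a repressor that Notch switches on directly. It had 31.5 TPM on Jagged1 with DMSO, against 3.81 on Jagged1 with DAPT, 7.85 on Fc with DMSO and 4.64 on Fc with DAPT. The active culture lay apart from the others, of which Fc with DMSO was the nearest, and the gap was 1.88 on the log2 scale (log2 difference 2.39, SE 0.35, adjusted p = 0.0565). HEY2, a close relative of HEY1, had 7.84 TPM on Jagged1 with DMSO, against 2.24 on Jagged1 with DAPT, 2.86 on Fc with DMSO and 1.604 on Fc with DAPT (log2 difference 1.47, SE 0.23, adjusted p = 0.0763). HES1 (chromosome 3, 193853934 to 193856521), which encodes a repressor of differentiation genes, had 55 TPM on Jagged1 with DMSO, against 24.99 on Jagged1 with DAPT, 35.5 on Fc with DMSO and 17.9 on Fc with DAPT. HES1 thus had a smaller gap (0.62) than HEY1, with Fc with DMSO as the next culture (log2 difference 1.10, SE 0.42, adjusted p = 0.516). HES4 had 2.53 TPM on Jagged1 with DMSO, against 0.612 on Jagged1 with DAPT, 0 on Fc with DMSO and 0 on Fc with DAPT, so that it was listed at 0 in both Fc cultures and no fold change is given. DTX1, which encodes a ubiquitin ligase that binds Notch receptors, had 1.97 TPM on Jagged1 with DMSO, against 0.243 on Jagged1 with DAPT, 0.742 on Fc with DMSO and 0.188 on Fc with DAPT, a low level at which a few reads decide the value.

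KLF9 (chromosome 9, 72999503 to 73029540), the gene of a zinc-finger transcription factor, had 29.04 TPM on Jagged1 with DMSO, against 7.397 on Jagged1 with DAPT, 10.5 on Fc with DMSO and 6.504 on Fc with DAPT. Its gap on the log2 scale was 1.39 by TPM and 1.42 by coverage (log2 difference 1.74, SE 0.36, adjusted p = 0.168). With terms for the inactive cultures shared by the 3 lines, KLF9 passed the limma test (adjusted p = 0.0312). SNAI2, the gene of the Slug repressor that acts in epithelial to mesenchymal transitions, had 127 TPM on Jagged1 with DMSO, against 49.4 on Jagged1 with DAPT, 65.4 on Fc with DMSO and 55.1 on Fc with DAPT. BMP2, a secreted growth factor gene, had 4.803 TPM on Jagged1 with DMSO, against 2.13 on Jagged1 with DAPT, 2.86 on Fc with DMSO and 2.797 on Fc with DAPT. The other 9 tested effectors were not past the range by 0.5. NRARP, a feedback inhibitor of Notch, had 5.05 TPM on Jagged1 with DMSO, against 3.74 on Jagged1 with DAPT, 4.49 on Fc with DMSO and 3.22 on Fc with DAPT, a gap of only 0.14. MYC stood at 32.8 TPM in the active culture against 28.2 to 35.4 TPM in the others, CCND1 at 138 against 148 to 172 TPM and the cell cycle inhibitor gene CDKN1A at 68.8 against 32.6 to 49.9 TPM. SOX9, with 14.5 against 19.5 to 21.6 TPM, was lowest in the active culture but by less than 0.5.

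**Figure D1:**
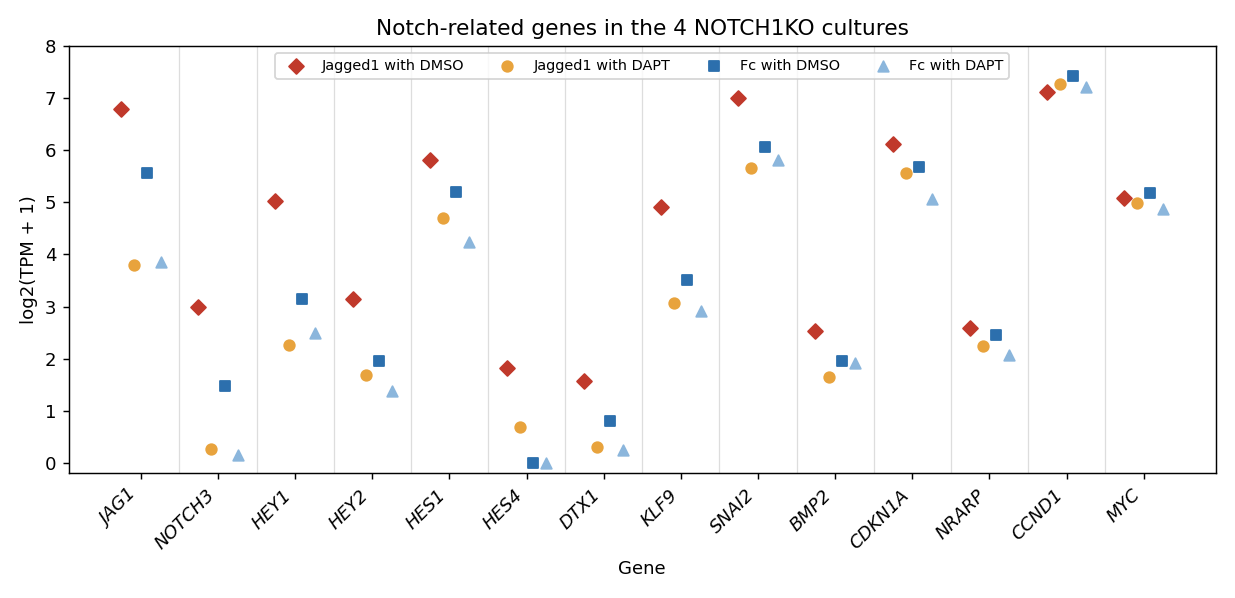
Levels of 14 Notch-related genes in the 4 NOTCH1KO libraries, as log2(TPM + 1), with 1 point per library and no replicates. The red diamonds (Jagged1 with DMSO) are highest for JAG1, NOTCH3, HEY1, HEY2, HES1, HES4, DTX1, KLF9, SNAI2 and BMP2 by at least 0.5, while NRARP, CDKN1A, CCND1 and MYC were not past the range by that much.

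Of the receptors and ligands, 1 receptor gene and 1 ligand gene stood above the range. JAG1 (ENSG00000101384, chromosome 20, 10618332 to 10654694), which encodes Jagged1 itself, had 110.2 TPM on Jagged1 with DMSO, against 12.9 on Jagged1 with DAPT, 46.2 on Fc with DMSO and 13.5 on Fc with DAPT. The DAPT cultures were nearly alike and Fc with DMSO lay between them and the active culture (log2 difference 2.39, SE 0.78, adjusted p = 0.401). NOTCH3 (chromosome 19, 15270444 to 15311792), itself a known Notch target in other cells, had 7.0 TPM on Jagged1 with DMSO, against 0.208 on Jagged1 with DAPT, 1.79 on Fc with DMSO and 0.107 on Fc with DAPT. It was close to absent in both DAPT cultures (log2 difference 2.37, SE 0.68, adjusted p = 0.339, coverage gap 2.07). Coverage divided by FPKM, which should be steady for a gene, varied 2.86-fold for NOTCH3 among these libraries. NOTCH4 was at or below 0.12 TPM in all 4. The ligand genes DLL1 and JAG2 were at 2.09 against 1.4 to 2.499 TPM and 0.104 against 0.185 to 0.795 TPM.

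The machinery that cuts and serves the receptors had 0 members above the range and 2 below, in lists of 8, 5 and 18 tested genes. Over all genes the shares were 2.46% above and 3.0% below, and whether such short lists differ from them was not tested. Among 8 sheddase and γ-secretase genes, 0 were past it. ADAM10, a sheddase, had 91.7 against 79.6 to 82.9 TPM. Of 5 glycosylation enzyme genes, MFNG (Manic Fringe, which alters how receptors answer Jagged and Delta ligands) was below the range with 1.06 against 2.42 to 3.85 TPM, and its gap was -0.74 by TPM and -0.70 by coverage. Of 18 tested CSL cofactor and co-repressor genes TLE1, a Groucho co-repressor gene, was below with 4.05 against 8.03 to 12.1 TPM, but its coverage gap was only -0.35. RBPJ, the gene of CSL, had 65.9 against 46.5 to 52.8 TPM, a difference that stayed under 0.5.

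Across all 17621 genes, 433 were above the range (2.46%) and 529 below it (3.0%). Of these, 325 (75.1%) and 387 (73.2%) were protein-coding outside the Y chromosome, as were 12775 of the 17621 genes tested. With a gap of at least 1 there were 116 and 125 genes, and 3618 and 4631 were above or below by any amount. Just outside the threshold were ZEB2 (gap 0.4995) and RDH10 (0.4996), and just inside it FYN (0.5006) and C16orf45 (0.502). Below the range, PTPRO (-0.499) and KIAA1244 (-0.4999) were just outside, and NFIX (-0.5003) and L3MBTL1 (-0.501) just inside. Of the 433 genes 288 (66.5%) were also above by coverage, where 2.03% of all genes were above, and of the 529 genes 318 (60.1%) were also below, where 2.65% of all were. Coverage divided by FPKM varied over 1.5-fold among these libraries, or the gene was listed at 0 in some of them, for 39.5% of the genes above, 45.7% of those below and 19.0% of all. Its part in the counts was not tested.

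**Figure D2:**
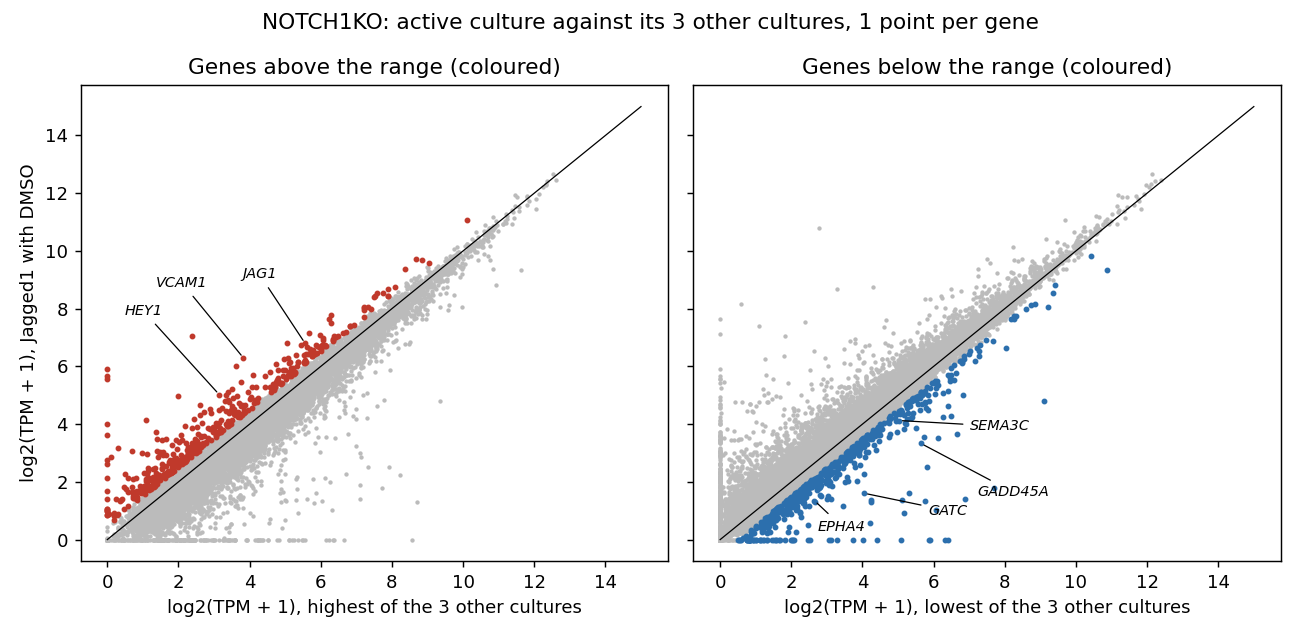
Each gene's log2(TPM + 1) on Jagged1 with DMSO (vertical axis) against the highest (left) and the lowest (right) of the 3 other NOTCH1KO cultures, with the line of equal values. Coloured points are past the range by at least 0.5, 433 above in the left panel and 529 below in the right panel before Y-linked genes were left out of the plot, and some lie on the axes because the gene was listed at 0.

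Of protein-coding genes with the largest gaps above the range, VCAM1, TDO2, C10orf128, PPEF1 and UBD were above by a similar amount in coverage. VCAM1 (chromosome 1, 101185298 to 101204601), the adhesion molecule that leukocytes bind, had 77.4 TPM on Jagged1 with DMSO, against 11.1 on Jagged1 with DAPT, 13.2 on Fc with DMSO and 6.76 on Fc with DAPT (log2 difference 2.83, SE 0.53, adjusted p = 0.118). TDO2, the tryptophan-degrading enzyme gene, had 63.2 TPM on Jagged1 with DMSO, against 7.096 on Jagged1 with DAPT, 11.3 on Fc with DMSO and 7.99 on Fc with DAPT (log2 difference 2.74, SE 0.42, adjusted p = 0.0740). UBD, a ubiquitin-like protein gene, had 24.3 TPM on Jagged1 with DMSO, against 3.93 on Jagged1 with DAPT, 5.11 on Fc with DMSO and 0 on Fc with DAPT, with a wide spread among the 3 others, and it overlaps GABBR1 on the same strand. PPEF1, a phosphatase gene, had 6.26 TPM on Jagged1 with DMSO, against 0 on Jagged1 with DAPT, 0.0793 on Fc with DMSO and 0 on Fc with DAPT, and C10orf128 had 7.43 TPM on Jagged1 with DMSO, against 0 on Jagged1 with DAPT, 0.6102 on Fc with DMSO and 0.212 on Fc with DAPT. Both of these passed the limma test (adjusted p = 0.0491 and 0.0244), and lost it in 12 and 5 of 18 alternative settings.

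Several of the other largest gaps belonged to genes that share sequence with a neighbour. HNRNPH2, an RNA-binding protein gene, had 132 against 2.55 to 4.24 TPM, while the read-through gene RPL36A-HNRNPH2, which overlaps it, was at 0 against 78.5 to 82.2 TPM. Summed over the pair, the active culture had 132 TPM and the others 81.1 to 86.4 TPM. PDXP, which overlaps SH3BP1, had 49.9 TPM and was listed at 0 in the 3 others. In WT it was also at 0 in 1 culture and at 32.8 to 38.7 TPM in 3. SPANXC, a cancer-testis gene of a family of near-identical copies, had 11.2 TPM and was listed at 0 in the 3 others. CTC-435M10.3 (16.6 against 0 to 1.11 TPM), PPAN-P2RY11 (10.3 against 0 to 1.62 TPM) and RP4-734P14.4 (10.01 against 0 to 1.93 TPM) also overlap another gene on the same strand. The sources used here did not say how reads were divided among such genes, so these levels are uncertain.

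The largest gaps below the range were of the same mixed kind. GADD45A, a growth arrest and stress gene, had 9.07 against 48.9 to 56.7 TPM, and GATC, a mitochondrial tRNA amidotransferase subunit gene, had 2.04 against 15.5 to 27.8 TPM. Coverage divided by FPKM varied 1.96-fold for GADD45A and 2.18-fold for GATC, which also overlaps AL021546.6 on the same strand. UHMK1, a kinase gene, had 18.4 against 89.6 to 119.8 TPM and ZNF146, a zinc-finger gene, 10.7 against 52.1 to 69.7 TPM. MAGEA2, NBPF11, ECSCR and TVP23C-CDRT4 were listed at 0 in the active culture and at 32.8 to 36.7, 7.26 to 8.96, 4.54 to 5.61 and 8.83 to 17.4 TPM in the others. For TVP23C-CDRT4 the coverage gap was only -0.55. Summed over the pair of TVP23C and TVP23C-CDRT4, the active culture had 48.7 TPM and the others 38.5 to 50.8 TPM, so the pair was not past the range. TCEAL2 (1.24 against 9.89 to 11.2 TPM) and RP11-347C12.1 (0 against 3.21 to 4.44 TPM) were also among the 12 largest, as was RPL36A-HNRNPH2.

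The limma model compared the active culture with the mean of the 3 others, taking the error from the spread among the inactive cultures of all 3 lines. It assumes that the lone active library varies as those do. The 3 inactive cultures are different treatments, not replicates, so effects of plate and DAPT among them are part of this error. It called 12 genes higher (0.0681% of those tested) and 15 lower (0.0851%) at an adjusted p under 0.05, and 1457 genes had an unadjusted p under 0.05. Of the 12 higher genes 9 were protein-coding, 2 were pseudogenes and 1 was Y-linked, and of the 15 lower genes 7 were protein-coding and 7 pseudogenes. Among the 17621 genes tested, 12775 were protein-coding. Beside PPEF1, C10orf128 and SPANXC the higher protein-coding genes were RORA, POLR2D, ARHGAP36, SCHIP1, ELOVL7 and FUNDC2. These 6 and the lower genes outside the 12 largest gaps are named because they were called, so they were chosen with their values known. RORA, a nuclear receptor gene, had 20.3 TPM in the active culture against 4.86 to 5.61 TPM in the others (log2 difference 1.75, SE 0.23, adjusted p = 0.0322). By coverage RORA was not called (adjusted p = 0.686), its gap was 0.16, and coverage divided by FPKM varied 2.63-fold. ELOVL7, a fatty acid elongase gene, rose to 30.1 TPM, against 9.48 to 11.6 TPM, and ARHGAP36, known as an activator of hedgehog signalling, to 3.84 TPM, against 0.282 to 0.412 TPM. SCHIP1 was called higher by TPM and the read-through gene IQCJ-SCHIP1 lower. The TPM of the pair summed to 44.3 in the active culture and 43.2 to 52.6 in the others, whereas their coverage summed to 7.01 in the active culture and 0.578 to 0.740 in the others, so the measures disagree on the pair. Beside TVP23C-CDRT4 the lower protein-coding genes included TUSC2 (15.2 against 36.3 to 38.7 TPM), SCOC (22.3 against 53.7 to 66.6 TPM), DEDD (26.9 against 57.4 to 60.7 TPM), RHNO1 (23.5 against 84.5 to 101 TPM) and LIN54 (4.67 against 12.9 to 15.8 TPM). By coverage, 9 of the 12 higher genes were called too, and RORA, PPEF1 and POLR2D were not. Of the 15 lower genes 10 were called by coverage too, and SCOC (adjusted p = 0.994), DEDD (0.226), LIN54 (0.0682), IQCJ-SCHIP1 (0.142) and TVP23C-CDRT4 (0.341) were not. SCOC was within the range by coverage. In WT the log2 difference was 4.52 for PPEF1, 3.38 for C10orf128, 3.03 for ARHGAP36 and 2.61 for ELOVL7. For SCHIP1, RORA, POLR2D and FUNDC2 it was smaller in WT, at 0.80, 0.56, 0.16 and 0.14.

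NF-κB targets and chemokines had the next largest share among lists with at least 10 tested genes. Of 25 tested 9 were above the range and 1, TRAF1, was below, against shares of 2.46% and 3.0% over all genes. The counts by coverage were also 9 and 1, though CSF1 was not among the 9. The list's median was 0.62. IL8 (CXCL8), a neutrophil attractant gene, had 849 TPM on Jagged1 with DMSO, against 182 on Jagged1 with DAPT, 412 on Fc with DMSO and 216 on Fc with DAPT. CXCL2, of the same chemokine family, had 13.7 TPM on Jagged1 with DMSO, against 2.99 on Jagged1 with DAPT, 4.23 on Fc with DMSO and 2.19 on Fc with DAPT. CXCL1 (119 against 39.3 to 65.2 TPM), CXCL3 (9.06 against 3.58 to 5.46 TPM), CCL20 (8.34 against 2.91 to 5.25 TPM), SOD2 (211 against 94.1 to 148 TPM), PTX3 (141 against 84.8 to 98.6 TPM), CSF1 (15.3 against 4.93 to 7.304 TPM) and VCAM1 were the others. The gap of CSF1, the macrophage growth factor gene, was 0.97 by TPM but 0.35 by coverage. TRAF1, a signalling adaptor gene, had 2.08 against 3.52 to 3.93 TPM. None of the list passed the limma test.

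Cytokine, prostaglandin and protease receptor genes were among those above, where the share over all genes was 2.46%. IL6, the founding cytokine of its family, had 656 TPM on Jagged1 with DMSO, against 151 on Jagged1 with DAPT, 328 on Fc with DMSO and 159 on Fc with DAPT (log2 difference 1.71, SE 0.63, adjusted p = 0.476). IL11, a cytokine that shares the gp130 receptor with IL6, had 103 TPM on Jagged1 with DMSO, against 17.9 on Jagged1 with DAPT, 64.5 on Fc with DMSO and 15.7 on Fc with DAPT. Both were lowest with DAPT on either plate, with Fc and DMSO between. They were 2 of 11 tested members of the IL6 family list. PTGS2, the inducible cyclooxygenase that makes prostaglandin precursors, had 181 TPM on Jagged1 with DMSO, against 57.1 on Jagged1 with DAPT, 77.7 on Fc with DMSO and 47.1 on Fc with DAPT, and PLA2G4A, the phospholipase that releases arachidonic acid for it, 71.5 against 35.3 to 46.5 TPM. F2RL1 and F2R, which encode receptors switched on by proteolytic cleavage, were 2 of 4 tested members of their family. F2RL1 had 815 TPM on Jagged1 with DMSO, against 303 on Jagged1 with DAPT, 463 on Fc with DMSO and 331 on Fc with DAPT, with Fc and DMSO next. F2R had 123 against 56.5 to 79.6 TPM. SAT1, the enzyme that acetylates polyamines for export or breakdown, had 105 TPM on Jagged1 with DMSO, against 17 on Jagged1 with DAPT, 42.7 on Fc with DMSO and 17 on Fc with DAPT, and the spermine oxidase gene SMOX had 70.6 against 25.8 to 46.8 TPM. The other 11 tested polyamine genes were not past the range.

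Growth factor receptor, matrix and mesenchymal genes contributed further members, against shares of 2.46% above and 3.0% below over all genes. Of 18 tested mesenchymal markers SNAI2, LUM and PDGFRB were above the range and CNN1 was below. PDGFRB, the receptor for PDGF-B on mural and mesenchymal cells, had 65.99 TPM on Jagged1 with DMSO, against 14.8 on Jagged1 with DAPT, 25.7 on Fc with DMSO and 11.5 on Fc with DAPT (log2 difference 1.94, SE 0.47, adjusted p = 0.241). LUM, a small proteoglycan of collagen fibrils, had 31.4 TPM on Jagged1 with DMSO, against 7.49 on Jagged1 with DAPT, 9.16 on Fc with DMSO and 6.81 on Fc with DAPT (log2 difference 1.88, SE 0.27, adjusted p = 0.0539). Of 14 tested PDGF and IGF genes 3 were above and 0 below, the other 2 being the IGF-binding protein genes IGFBP3 (166 against 64.1 to 113 TPM) and IGFBP7 (106 against 25.5 to 68.5 TPM). Of 20 tested collagen genes COL3A1 (10.7 against 2.03 to 5.196 TPM) and COL15A1 (4.83 against 0.521 to 2.12 TPM) were above and COL8A1 (1.58 against 2.95 to 4.55 TPM) was below. By coverage 2 collagen genes were above and 0 below. Of 19 TGF-β genes TGFBR1, a receptor kinase gene (74.7 against 22.3 to 30.5 TPM), and TGFB1 (103 against 26.8 to 57.9 TPM) were above and SMAD4 (33.4 against 48.9 to 66.8 TPM) was below. By coverage TGFBR1 alone of these 3 was past the range. TGFB2, another ligand of that pathway, had 39.4 against 23.8 to 37.7 TPM. MMP7, a matrix metalloprotease gene, had 7.46 TPM on Jagged1 with DMSO, against 0.657 on Jagged1 with DAPT, 0 on Fc with DMSO and 1.64 on Fc with DAPT. Of 20 tested matrix protease and inhibitor genes MMP7 alone was above and ADAMTS6 alone below. SERPINB2, an inhibitor of plasminogen activators, had 24.3 against 11 to 12.8 TPM, and TNFAIP6, which links hyaluronan chains, had 7.03 against 1.54 to 4.27 TPM, with a coverage gap of 0.44. Of 12 tested hyaluronan genes TNFAIP6 and KIAA1199 were above by TPM and HAPLN1 was below. AREG, an EGF receptor ligand gene that did not pass the filter, was at 1.77 TPM in the active culture and 0.723 to 0.877 TPM in the others.

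Signalling feedback genes past the range were all above it, and guidance genes were on both sides. The shares over all genes, for the lists in this paragraph, were 2.46% above and 3.0% below. Of 31 tested immediate-early and MAPK feedback genes IER3 (429 against 147 to 269.8 TPM), DUSP1 (94.5 against 35.3 to 54.2 TPM) and DUSP6 (82.6 against 39.96 to 45.5 TPM) were above and 0 below. DUSP1 and DUSP6 encode phosphatases that switch MAP kinases off. Of 29 tested guidance genes EFNA1, SLIT2, NTN4 and UNC5B were above and SEMA3C, SEMA6A and EPHA4 below. By coverage 4 guidance genes were above and 2 below. UNC5B, a netrin receptor gene, had 20.8 TPM on Jagged1 with DMSO, against 5.87 on Jagged1 with DAPT, 9.15 on Fc with DMSO and 3.24 on Fc with DAPT, and its ligand gene NTN4 57.9 against 13.5 to 26.9 TPM. EPHA4, an ephrin receptor gene, had 1.55 TPM on Jagged1 with DMSO, against 8.93 on Jagged1 with DAPT, 5.28 on Fc with DMSO and 11.4 on Fc with DAPT, and its gap was -1.30 by TPM and -0.79 by coverage. SEMA3C, a secreted semaphorin gene, had 16.4 TPM on Jagged1 with DMSO, against 31.6 on Jagged1 with DAPT, 47.8 on Fc with DMSO and 50.5 on Fc with DAPT. Of 13 tested angiogenic factors EDN1 (31.7 against 51.3 to 83.8 TPM), which encodes endothelin-1, FGF2 (3.03 against 5.53 to 9.32 TPM) and the VEGF co-receptor gene NRP1 (50.6 against 88.3 to 103 TPM) were below. FLT1, a VEGF receptor gene, was above with 12.6 against 7.37 to 7.92 TPM, and its coverage gap was 0.39. Of 15 tested WNT genes DKK3, TCF7 and NKD2 were above and DKK1 (9.57 against 15.9 to 26.3 TPM) and RNF43 below. By coverage 2 WNT genes were above and 1 below.

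Hypoxia genes were examined because the study asked how Notch acts on the HIF factors, and their shares past the range were near those over all genes (2.46% above and 3.0% below). Of 17 tested HIF and oxygen-sensing genes 0 were past it. EPAS1, the gene of HIF2α, had 24.8 TPM on Jagged1 with DMSO, against 19.3 on Jagged1 with DAPT, 11.3 on Fc with DMSO and 14.5 on Fc with DAPT. The active culture was highest, but the gap was 0.34 (log2 difference 0.71, SE 0.42, adjusted p = 0.777). HIF1A had 237 against 178 to 215 TPM (log2 difference 0.28, SE 0.14, adjusted p = 0.712). Of 39 tested hypoxia-induced genes NDRG1 (52.9 against 25.2 to 36.9 TPM) and MXI1 (11.2 against 6.72 to 7.25 TPM) were above and the glycolytic gene ALDOC (1.57 against 2.65 to 3.16 TPM) was below, and the list's median was 0.01. By coverage 1 hypoxia-induced gene was above and 1 below. VEGFA had 89.5 against 61.5 to 64.2 TPM, a gap of 0.47. ID3, an inhibitor of helix-loop-helix factors, and STUB1, a ubiquitin ligase gene, had 319.7 against 137 to 262 TPM and 48.5 against 24.9 to 57.1 TPM.

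By TPM no gene was past the range among 44 cell cycle, 19 p53 target, 11 sonic hedgehog, 10 CCN and thrombospondin, 13 Notch trafficking and 13 mitochondrially encoded genes tested. By coverage 2 of the 10 CCN and thrombospondin genes were above. With 2.46% above and 3.0% below over all genes, a count of 0 in a short list is near the background. The cell cycle list had a median of -0.17. Of 37 interferon-stimulated genes only RSAD2 (1.44 against 2.72 to 3.69 TPM) was below, and of 22 tested cholesterol synthesis genes only MVD (6.34 against 11.5 to 17.96 TPM). By coverage neither RSAD2 nor MVD was past the range, while 1 other interferon gene (IRF1) was above and 1 other cholesterol gene (SREBF2) below. A bulk library gives the RNA of all cells together, so that fewer cells of a type and less RNA per cell cannot be told apart.

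**Figure D3:**
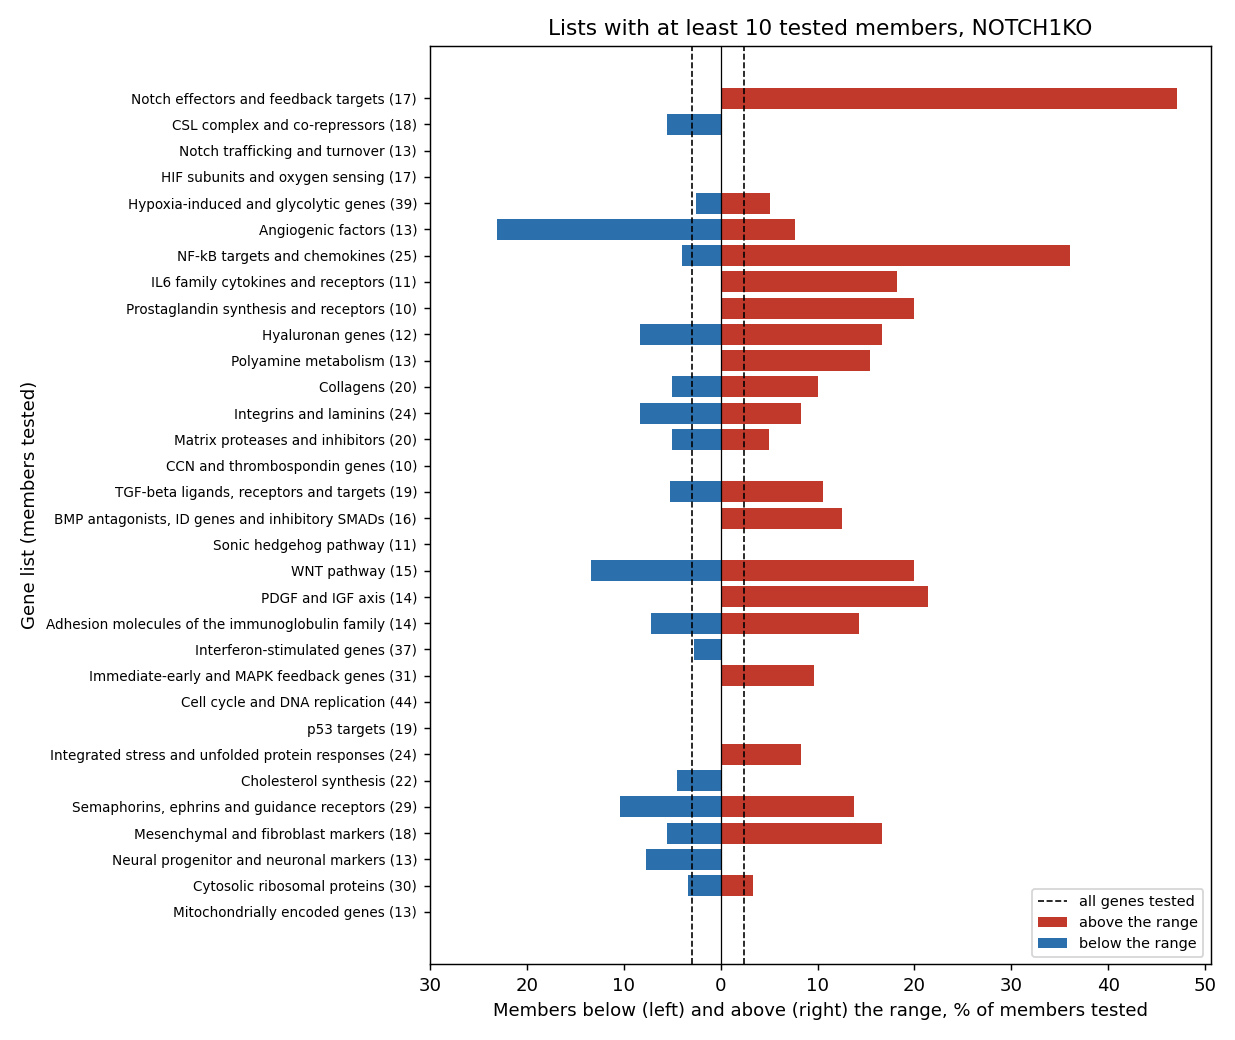
Share of each list's tested members above (red, to the right) and below (blue, to the left) the range in NOTCH1KO, for lists with at least 10 tested members, in percent. Dashed lines mark 2.46% above and 3.0% below over all genes tested. The longest red bars are those of Notch effectors (8 of 17) and of NF-κB targets and chemokines (9 of 25).

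The culture on Fc with DMSO was often nearest to the active one. Of the 433 genes above the range it was the highest of the 3 others for 234 (54.0%), compared with 29.4% of all genes tested. Of the 529 genes below, it was the lowest for 210 (39.7%), compared with 30.2% of all genes. DAPT minus DMSO on Fc plates, a step between single libraries, had a median of -0.18 over the 433 genes and 0.01 over all. Jagged1 minus Fc with DAPT in both had medians of 0.02 over the 433 genes and -0.03 over all. The libraries of these steps are the 3 others that set the range by which the 433 genes were chosen. These medians and the shares above are therefore no independent evidence. As examples picked with their values known, JAG1, HEY1, KLF9, IL6, IL11, IL8 and SAT1 showed the order of Jagged1 with DMSO, then Fc with DMSO, then both DAPT cultures. HES4 and MMP7, also above the range, did not show this order.

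The same contrast in the other lines used other libraries. Of the 433 genes above the range in NOTCH1KO 179 (41.3%) were also above in WT, where 600 genes (3.41% of those tested) were above. This was 29.8% of the WT genes. In NOTCH2KO 434 genes (2.46%) were above and 47 of the 433 (10.9%) were shared, which was 10.8% of the NOTCH2KO genes. Below the range 103 of 529 (19.5%) were shared with the 653 genes (3.71%) of WT, which was 15.8% of the WT genes, and 36 (6.81%) with the 380 genes (2.16%) of NOTCH2KO, which was 9.47% of the NOTCH2KO genes. In all 3 lines 32 of the 17621 genes tested were above and 11 below. Over the 433 genes the median difference was 0.63 in WT and 0.24 in NOTCH2KO. Whether the shares differ beyond chance was not tested.

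**Figure D4:**
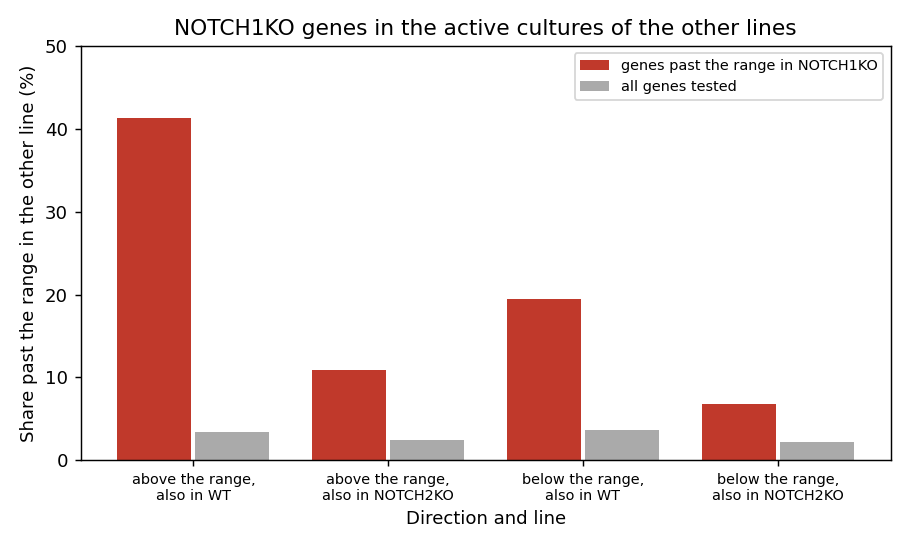
Of the genes above and below the range in NOTCH1KO, the share that was past it in the same direction in WT and NOTCH2KO (red), beside the share of all genes tested (grey), in percent. The red bars are 41.3, 10.9, 19.5 and 6.81, and the grey bars 3.41, 2.46, 3.71 and 2.16.

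For the genes given next, the difference in response between lines did not pass the limma test. In simulated data that test found 10% of log2 changes of 1 against WT and 8% against NOTCH2KO. Of changes of 2 it found 53% and 50%, so real differences of this size can be missed. HEY1 had a response of 2.39 in NOTCH1KO, 2.41 in WT and 0.65 in NOTCH2KO (SE 0.35 each). NOTCH1KO minus WT was -0.02 (SE 0.49, adjusted p = 0.998), and NOTCH1KO minus NOTCH2KO was 1.74 (SE 0.49, adjusted p = 0.521). In NOTCH2KO its levels were 18.3 against 10.1 to 13.1 TPM. VCAM1 differed from NOTCH2KO by 2.22 (SE 0.75, adjusted p = 0.611), with 8.43 against 3.92 to 7.21 TPM in NOTCH2KO and 204 against 13.1 to 34.3 TPM in WT. NOTCH3 had 16.2 against 0.126 to 1.72 TPM in WT and 0.237 against 0.186 to 1.33 TPM in NOTCH2KO, where the active culture was not the highest (NOTCH1KO minus NOTCH2KO 2.65, SE 0.96, adjusted p = 0.645). PDGFRB had 73.3 against 5.28 to 10.7 TPM in WT and 7.34 against 4.07 to 6.26 TPM in NOTCH2KO. TDO2 was higher on Jagged1 with DMSO in NOTCH1KO than in WT, where it had 15.2 against 5.06 to 7.94 TPM, but the difference of 1.63 did not pass (SE 0.59, adjusted p = 0.857).

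KLF9, HES1 and PTGS2 were above the range in all 3 lines, and JAG1 too. KLF9 had 70.2 against 9.54 to 16.5 TPM in WT and 20.1 against 6.76 to 11.6 TPM in NOTCH2KO. JAG1 had 144 against 14.3 to 46.9 TPM in WT and 121 against 50.1 to 82.6 TPM in NOTCH2KO. EPHA4 and SEMA3C, which were below in NOTCH1KO, were below in WT as well (2.45 against 5.76 to 6.97 TPM and 10.97 against 21.9 to 23.7 TPM), and in NOTCH2KO they stood at 7.16 against 3.87 to 4.98 TPM and 44.7 against 34.5 to 45.8 TPM. Across all genes, the response in NOTCH1KO was higher than in WT for 15 genes (0.0851%) and lower for 12 (0.0681%), with 928 at an unadjusted p under 0.05. Against NOTCH2KO it was higher for 9 (0.0511%) and lower for 10 (0.0568%), with 1204 at an unadjusted p under 0.05. None of the 17 tested Notch effectors nor JAG1 or NOTCH3 was among them.

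**Figure D5:**
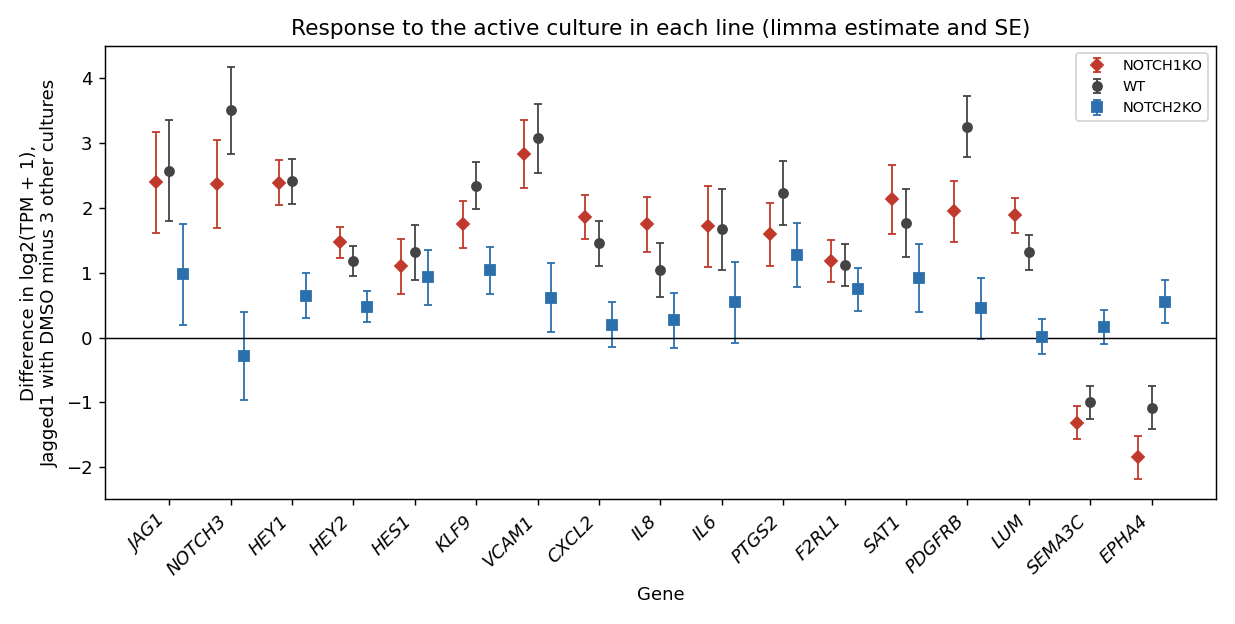
Difference between the active culture and the mean of the 3 other cultures in log2(TPM + 1), by line, for 17 genes above or below the range in NOTCH1KO, with limma estimates and standard errors (bars). NOTCH1KO and WT lie close for HEY1 (2.39 and 2.41), whereas NOTCH2KO is nearer 0 (0.65), and none of these differences between lines passed the test.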

How the data were processed

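Poly-A RNA libraries (stranded TruSeq mRNA, single reads of 51 bases) were made by the authors. Per the labels, bcl2fastq 2.17 and CASAVA were used, with GRCh37. No source used here named the aligner, quantifier, annotation or strand setting. The deposited TPM values are scaled for gene length and to the same total in each library, the deposited FPKM values are a fixed multiple of TPM in each library, and the deposited coverage (signal) is mean read depth per base. Values were summed per gene identifier. Gene types came from GENCODE 29, by identifier only.

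Genes averaging 1 TPM or more over 12 libraries were analysed as log2(TPM + 1). limma 3.58.1 (R 4.3.3) used a mean-variance trend, 6 means (line by active or inactive culture), 6 residual degrees of freedom and Benjamini-Hochberg adjustment over 17621 genes. Scripts were tested on simulated data. Pairs of NOTCH1KO libraries correlated at 0.957 to 0.970, and 0 of 66 pairs were duplicates.

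Members and the 42 gene lists were chosen with earlier results of these data known. Named genes were markers and pathway genes given beforehand, tested Notch effectors, the 12 largest gaps each way among protein-coding genes, the 5 largest differences from WT each way, and up to 4 members per list. Others were chosen after their values were seen. Y-linked genes are not reported by name, and a few other genes that the rule names are not reported here. Alternatives were pseudocount 0.1, no filter, mean TPM of at least 5, FPKM, median centring, coverage, gaps of at least 1 or any size, culture terms, library weights, a log2 difference of at least 1, and each library left out.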

Additional observations from a re-analysis of the deposited data

Results flagged for a closer look

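Responses to the active culture differed between lines, by the limma test of the difference, for these named genes. Each active culture was 1 library, and most of these genes are pseudogenes, read-through genes or members of gene families, for which the assignment of shared reads is uncertain. YWHAZP4 was listed at 0 in every inactive culture. Its error in this test therefore comes from the trend over all genes and not from its own spread.

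Set against WT and against NOTCH2KO, SPANXC differed at adjusted p = 8.16e-05 and 0.000118. It was listed at 0 in all 4 WT cultures and at 188 against 171 to 183 TPM in NOTCH2KO. The pseudogene YWHAZP4 differed at adjusted p = 2.97e-05 and 2.36e-05, with 59.5 TPM in the active NOTCH1KO library and 0 in the 11 others. The pseudogene RPL31P63 differed at 2.91e-05 and 1.41e-05, with 1.66 against 117 to 135 TPM in NOTCH1KO. PSMA6P2 differed at 0.00107 and 1.41e-05 and RP11-6B6.3 at 0.000131 and 0.000184.

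Against WT alone, TVP23C-CDRT4 differed at adjusted p = 0.00222. Summed over the pair of TVP23C and TVP23C-CDRT4, the active NOTCH1KO culture had 48.7 TPM and the other NOTCH1KO cultures 38.5 to 50.8 TPM. For the other genes the value apart from the rest was in the active WT library. These were POTEE (0.000349), COMMD3-BMI1 (0.000349), RHEBP2 (0.0252), RPS2P5 (0.0401) and ZNF768 (7.55e-05), and in NOTCH1KO their 4 cultures showed no gap of 0.5. ZNF768 had 11.7 against 12.5 to 15.98 TPM in NOTCH1KO, and in WT was listed at 0 in the active culture against 20.1 to 21.4 TPM.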

How the results depend on the processing

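No paired analysis was possible because each line and culture had 1 library and the labels number no replicates. The lines do share the 4 cultures, and a fit with terms for the inactive cultures gave adjusted p = 0.0312 for KLF9, 0.0872 for JAG1 and 0.0976 for HES1, and PPEF1 lost its call (0.0814). With 1 active library, the error of every test is that among inactive cultures, and genes below about 1 TPM rest on few reads.

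Of 138 other values of gene counts, 102 stayed within 1.5 times the value reported. The 433 genes above the range became 783 with no filter, 246 with a mean TPM of at least 5, 116 with a gap of at least 1 and 3618 with any gap. The 529 below became 816 with a pseudocount of 0.1, 336 with a mean TPM of at least 5, 125 with a gap of at least 1 and 4631 with any gap. All of the 433 and 529 were kept with a pseudocount of 0.1. Leaving out an inactive NOTCH1KO culture, which can only widen the calls, gave 636 to 747 above and 807 to 1013 below.

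In the limma fit the 12 higher genes became 19 with FPKM, 7 with a mean TPM of at least 5 and 378 with no filter, and the 15 lower genes 27 with coverage and 44 with no filter. Against WT the 15 higher genes became 8 with culture terms and 281 with no filter, and the 12 lower 20 with coverage, 7 with culture terms and 315 with no filter. Against NOTCH2KO the 9 higher genes became 22 with coverage and 294 with no filter, and the 10 lower 22 with coverage, 6 with culture terms and 326 with no filter. Leaving out 1 library gave 6 to 22 higher and 13 to 24 lower genes in NOTCH1KO, 10 to 20 and 9 to 19 against WT, and 9 to 14 and 7 to 16 against NOTCH2KO. The 6 came without NOTCH1KO Jagged1 with DAPT and the 22 without NOTCH1KO Fc with DMSO. The cause of these shifts was not tested.

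HEY1 passed the test in 4 of 19 alternatives (adjusted p from 0.0172 to 0.115), among them without NOTCH1KO Fc with DMSO, HEY2 in 3, KLF9 in 1 (culture terms) and DTX1 in 1 (coverage). SPANXC passed in all of its alternatives. Signs reversed on leaving out 1 library for NOTCH1 (-0.23 to 0.049), STUB1 (-0.10 to 0.48), MYC (-0.0069 to 0.15), ID1 (-0.37 to 0.21) and PLAUR (-0.11 to 0.077). The reversing values came without NOTCH1KO Fc with DMSO for NOTCH1, without NOTCH1KO Fc with DAPT for STUB1 and MYC, and without NOTCH1KO Jagged1 with DAPT for ID1 and PLAUR. PLAUR was also reversed with median centring (0.0057), and none of these values passed the threshold.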

Other observations

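Genes outside the lists were read from those above the range by TPM and by coverage in NOTCH1KO and also above it in WT, 117 protein-coding genes, of which 24 were above in NOTCH2KO too. Over all genes tested, 2.46% were above in NOTCH2KO. The following were chosen after their values were seen. TNFSF10, the gene of the death ligand TRAIL, had 198 TPM on Jagged1 with DMSO, against 55.3 on Jagged1 with DAPT, 74.5 on Fc with DMSO and 54.8 on Fc with DAPT, and 54.7 against 39.9 to 42.5 TPM in NOTCH2KO. SDC2, a cell surface heparan sulfate proteoglycan gene, had 140.2 TPM on Jagged1 with DMSO, against 31.4 on Jagged1 with DAPT, 49.8 on Fc with DMSO and 27.9 on Fc with DAPT. NCOA7 had 217 against 57.9 to 77.8 TPM and RUNX3, a Runt-domain transcription factor gene, 67.6 against 15.2 to 33.5 TPM. COL5A3, a collagen gene outside the list, had 35.9 against 1.303 to 10.3 TPM in NOTCH1KO and 1.45 against 0.649 to 0.6896 TPM in NOTCH2KO. The receptor genes IL1R1, CMKLR1 and S1PR3 had 19.1 against 3.51 to 5.07 TPM, 14.2 against 1.39 to 3.58 TPM and 21.9 against 6.76 to 10.2 TPM. None of these passed the limma test.

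Below the range by both measures in NOTCH1KO and also below in WT were 53 protein-coding genes, of which 7 were below in NOTCH2KO too. Over all genes tested, 2.16% were below in NOTCH2KO. MEST, an imprinted gene, had 373 TPM on Jagged1 with DMSO, against 650.2 on Jagged1 with DAPT, 706 on Fc with DMSO and 735 on Fc with DAPT, and 421 against 418 to 443 TPM in NOTCH2KO. CDCP1, a transmembrane gene, had 31 against 50.4 to 63.6 TPM in NOTCH1KO and 107 against 99.2 to 109 TPM in NOTCH2KO. CALB2, which encodes the calcium-binding protein calretinin, had 7.29 against 16.7 to 21.9 TPM, and ALOX5AP, which serves leukotriene synthesis, 3.399 against 8.36 to 9.07 TPM.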
